A study of Mus musculus with 18 samples.

Results

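The genes described here mark the primitive endoderm, the extraembryonic layer that forms beside the epiblast in the mouse blastocyst. They are the transcription factor genes Gata4, Gata6, Sox17, Sox7 and Foxa2, the endocytic adaptor gene Dab2, the laminin genes Lamb1 and Lama1, and the type IV collagen genes Col4a1 and Col4a2. CTCF binding was mapped by chromatin immunoprecipitation and sequencing (ChIP-seq) in mouse embryonic stem cells of 3 genotypes. SKO cells lack Dnmt1, Dnmt3a, Dnmt3b, Tet1, Tet2 and Tet3, TKO cells lack Tet1, Tet2 and Tet3, and WT cells carry neither set of deletions. Each genotype has 3 CTCF ChIP and 3 input samples, and its replicates were pooled by the authors into 1 peak list. All cells were grown with LIF and serum replacement on irradiated mouse embryonic fibroblasts (feeder cells), and the labels do not give whether a genotype is 1 clone or whether replicates are separate cultures. What feeder chromatin adds to the lists was not tested. Peak lists carry no expression values, so the labelled cell type could not be checked against markers, and fewer cells with CTCF at a site cannot be told apart from less CTCF per cell.

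A region belongs to the set when a summit lies inside a gene or within 10 kb of it, in mm10. By this rule 29 of 59372 SKO regions, 27 of 62238 TKO regions and 35 of 71075 WT regions were taken. Merged where they overlap, they make 36 regions of 78072 in the series. Below, a region is named after its gene and numbered along the chromosome. Regions inside the 10 kb limit reached out to 5.22 kb from a gene in WT, and the next WT region beyond it lay 10.7 kb from Col4a1 with a fold of 29.8.

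Primitive endoderm cells are set apart from the epiblast by fibroblast growth factor signalling and by transcription factors of the GATA and SOX families that act one after another. These cells secrete laminin and type IV collagen into the basement membrane and take up proteins through endocytosis that needs Dab2. Embryonic stem cells resemble the epiblast, and these genes are mostly low in them, although some stem cells move towards endoderm in culture. CTCF, with cohesin, anchors chromatin loops and domain boundaries. Methylation of CpG sites in its motif is known to hinder its binding at some sites. DNMT enzymes place this methylation and TET enzymes oxidise it, so the lists allow SKO and TKO each to be set against WT, and SKO against TKO.

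Among the member promoters in the RefSeq table, a single one was covered by a CTCF region, and all 3 lists held that region. It is the internal promoter of Dab2, whose 300 bases are shown because they lie under the region Dab2-2. The table (GRCm38.p6, the assembly behind mm10) holds windows of 250 bases before to 50 bases after a start for 5 of the 10 genes: Foxa2, Lamb1, Dab2, Col4a1 and Col4a2, with 8 windows in all. The window at chr15:6386498-6386797 on the plus strand is written 5′ to 3′, with its 19 CpG sites in capitals.
Dab2 internal promoter: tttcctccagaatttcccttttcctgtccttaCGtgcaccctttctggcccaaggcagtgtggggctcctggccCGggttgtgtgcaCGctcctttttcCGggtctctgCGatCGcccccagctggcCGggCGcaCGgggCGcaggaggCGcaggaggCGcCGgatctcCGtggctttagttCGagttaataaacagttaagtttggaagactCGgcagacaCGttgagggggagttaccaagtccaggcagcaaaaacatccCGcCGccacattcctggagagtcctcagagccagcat
The summit of Dab2-2 fell on base 105 of this window in SKO, base 150 in TKO and base 98 in WT, counted from 1 at its 5′ end. Over all 32851 windows the median was 7 CpG sites, and 9.10% were covered by an SKO region, 9.20% by a TKO region and 9.43% by a WT region. The other promoter window of Dab2, at the annotated start of the gene with 2 CpG sites, had no region in any list. A 9-letter core of the CTCF motif, searched as CNAGGNGGC and CNAGANGGC on both strands, was in none of the 8 member windows and in 13.6% of all windows. Its absence says only that these letters are not in these bases.

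The WT list held regions at 9 of the 10 genes, and the numbers per gene ranged widely. Col4a2 had 8 regions in SKO, 7 in TKO and 10 in WT, and Gata4 had 6 in SKO, 7 in TKO and 8 in WT. Lama1 had 5 and Col4a1 3 in each list, and Dab2 had 4 in SKO, 3 in TKO and 4 in WT. Gata6 and Foxa2 had 1 region in each list. Sox17 had 1 in SKO, 0 in TKO and 1 in WT, and Lamb1 had 0 in SKO, 0 in TKO and 2 in WT. Sox7 had none in any list. Across the windows the density was 3.28 regions per 100 kb in SKO, 3.05 in TKO and 3.95 in WT. In the windows of all 21900 protein-coding genes it was 3.17 in SKO, 3.32 in TKO and 3.75 in WT, so the set was neither crowded with CTCF nor empty of it.

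**Figure D1:**
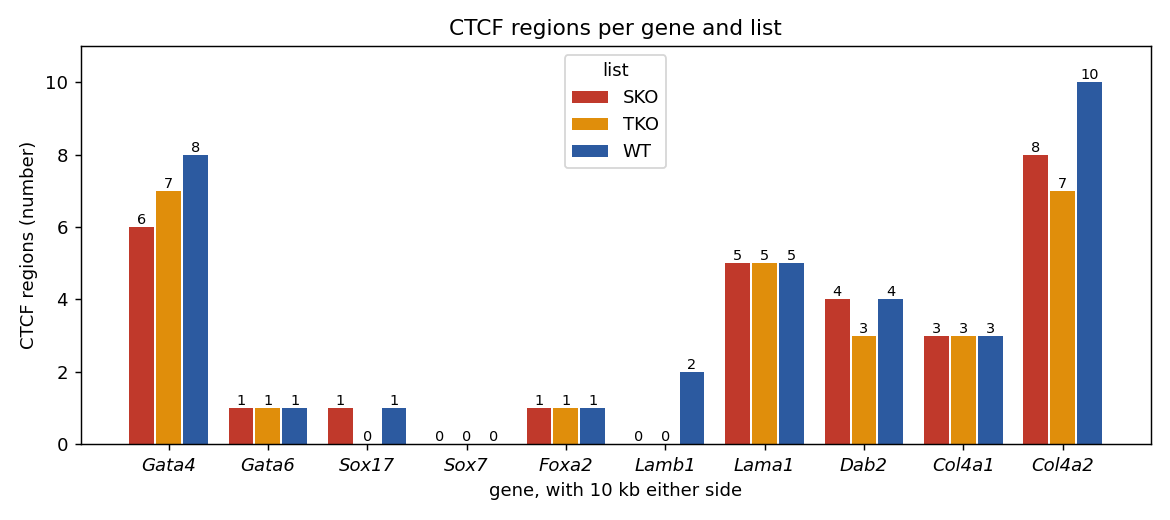
Number of CTCF regions (vertical axis) with a summit in each gene or within 10 kb of it, in the SKO, TKO and WT lists (bars from left to right). Lamb1 has regions in the WT list alone, Sox17 has none in TKO, and Sox7 has 0 in all 3 lists.

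Without the DNMT and TET enzymes, 6 of the 35 WT regions had no SKO region over them (17.1%, exact binomial 95% interval 6.56% to 33.6%), against 21.9% of all WT regions. They were Gata4-6, Gata4-8, both regions of Lamb1, Col4a2-8 and Col4a2-10. None of the 29 SKO regions was extra, that is, without a WT region over it (0%, 0% to 11.9%), against 6.59% of all SKO regions. Without the TET enzymes alone, 9 of the 35 WT regions had no TKO region (25.7%, 12.5% to 43.3%), against 19.0% of all WT regions. These were Sox17-1, Gata4-6, both regions of Lamb1, Dab2-3, Col4a1-4, Col4a2-3, Col4a2-8 and Col4a2-10. Among the 27 TKO regions 1 was extra, Col4a1-1 (3.70%, 0.0937% to 19.0%), against 7.49% of all TKO regions. Each background share lies inside the members' interval, so none of these 4 counts, as made here, sets the members apart from the rest of the lists. With both lists restricted to a −log10 q of at least 5 this no longer held for TKO against WT. There 12 of 33 members (36.4%, 20.4% to 54.9%) were missing, against 16.9% of all WT regions at that threshold. Of these 12, Gata4-1, Gata4-5, Gata4-8 and Lama1-3 are in the deposited TKO list with a −log10 q of 1.37 to 4.94. With only WT restricted, 8 of 33 (24.2%, 11.1% to 42.3%) were missing, against 14.6%. The intervals cover counting error only. Replicates were pooled before peaks were called, so no test between genotypes was possible.

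Set against TKO, SKO lacked 2 of the 27 TKO regions (7.41%, 0.910% to 24.3%), against 14.5% of all TKO regions. These were Gata4-8 and Col4a1-1. In the other direction 4 of the 29 SKO regions had no TKO region (13.8%, 3.89% to 31.7%), against 10.4% of all SKO regions, and they were Sox17-1, Dab2-3, Col4a1-4 and Col4a2-3. All 4 were also WT regions. Of the 36 merged regions, 25 (69.4%) were in all 3 lists, 4 in SKO and WT, 1 in TKO and WT, 1 in TKO alone and 5 in WT alone. Both an SKO and a TKO region lay over 25 of the 35 WT member regions, and over 51946 of all 71075 WT regions. These shares are close, so being in all 3 lists does not set the members apart. For the other classes the shares over the series are not given here.

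The fold enrichment used below is the authors' value. It divides the ChIP fragments at a summit by the background expected there, after a small constant (pseudocount) is added to both. The fold is therefore lower than the plain quotient of the pileup and background printed below, and it is read within a list. Members ranged from 3.00 to 28.9 in SKO (median 10.2), from 2.45 to 22.4 in TKO (median 10.3) and from 2.90 to 28.3 in WT (median 9.83). The medians of the whole lists were 10.5 in SKO, 9.84 in TKO and 10.0 in WT. The pileup is the number of ChIP fragments over the summit, and it was returned by the fold and the p-value together. The genome-wide background, which stands for depth, was 1.37 fragments in SKO, 1.82 in TKO and 1.76 in WT. At that background the lowest pileup listed was 7 in SKO, 8 in TKO and 7 in WT. Over a higher local background more fragments are needed. Gata4-1 in TKO had 13 fragments over a background of 4.72, with an authors' −log10 q of 1.37. The local background at a region that a list lacks is not known, so the pileup needed there is not known either.

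**Figure D2:**
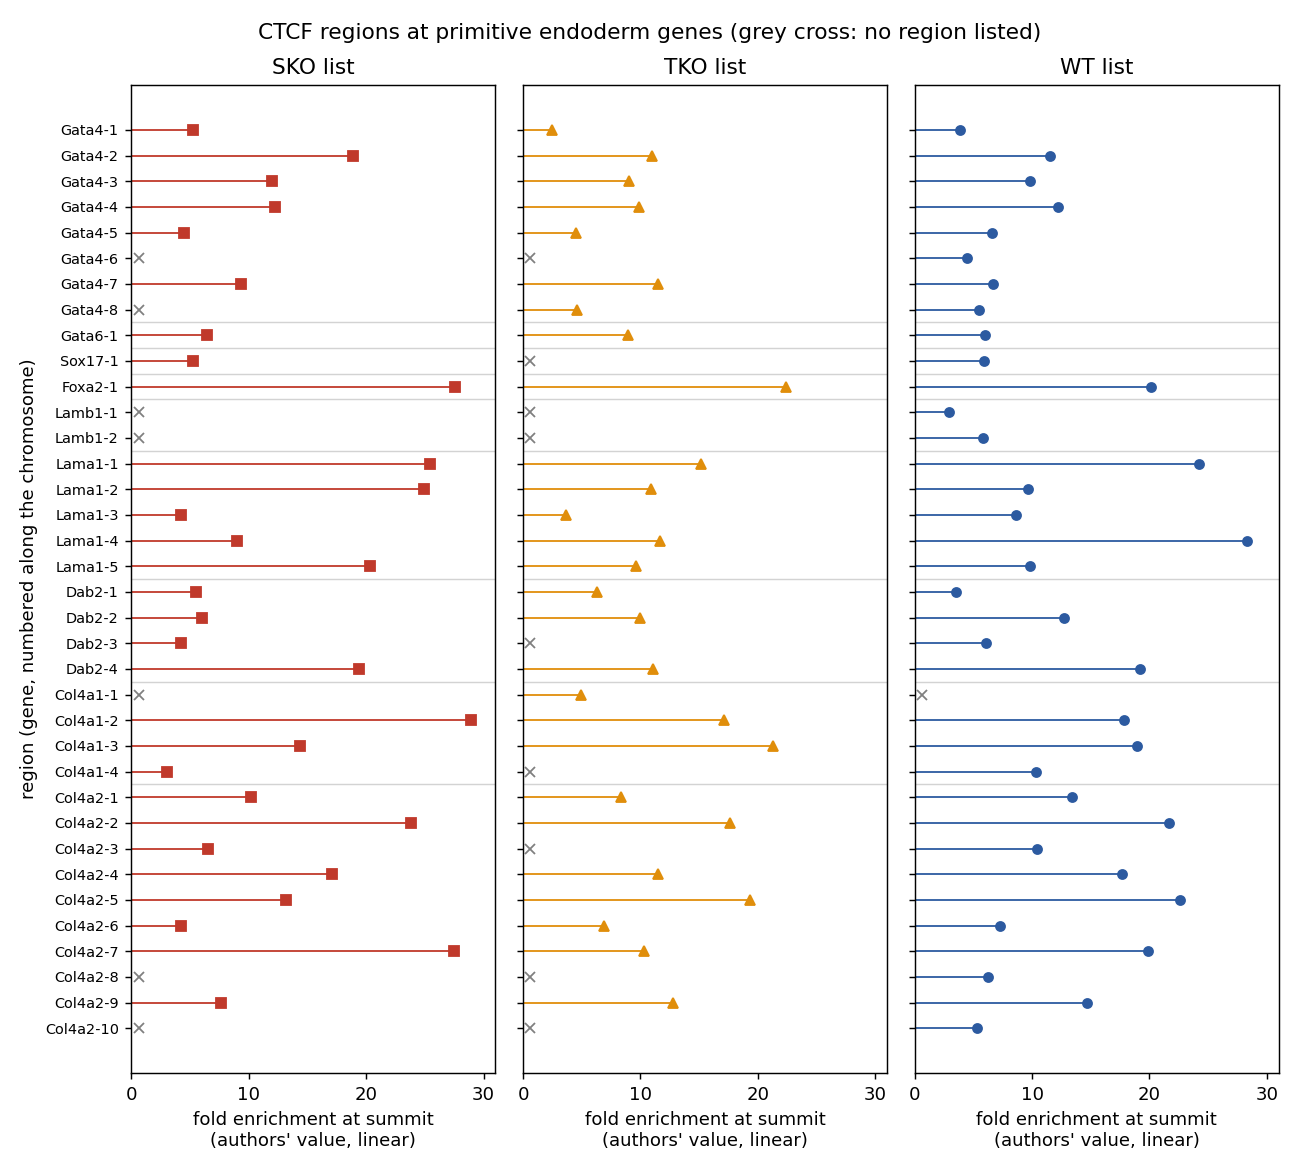
Fold enrichment at the summit (horizontal axis, linear, the authors' value) of each of the 36 regions in the SKO, TKO and WT lists. A grey cross marks a region that a list lacks. The regions missing from a knockout have WT folds between 2.90 and 10.4.

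Among the transcription factor genes, Gata6 specifies the primitive endoderm and its region sat on the gene boundary. Gata6 lies on chromosome 18 (11052510 to 11085636), and the summit of Gata6-1 was base 11052532 in SKO, 11052511 in TKO and 11052510 in WT. Its fold was 6.40 in SKO, 8.98 in TKO and 5.99 in WT, from pileups of 21 fragments in SKO, 25 in TKO and 24 in WT. The region was thus present in each list, in strength decile 3 of SKO, 4 of TKO and 3 of WT, where decile 1 holds the weakest and decile 10 the strongest regions of a list.

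Gata4, a factor of the endoderm and the heart, lies on chromosome 14 (63198914 to 63271712). Its strongest region in WT by −log10 q and by pileup, Gata4-2 (63195744 to 63196237 in WT), lay 2.96 kb outside the gene. The fold of Gata4-2 was 18.9 in SKO, 11.0 in TKO and 11.5 in WT, and its pileup was 62 in SKO, 69 in TKO and 108 in WT. By fold Gata4-4 was higher in WT, at 12.2 in SKO, 9.86 in TKO and 12.2 in WT. The regions Gata4-3, Gata4-4, Gata4-5 and Gata4-7 lay inside the gene and were in all 3 lists, as was Gata4-1, whose summit lies inside the neighbouring DNA repair gene Neil2. Gata4-1 was close to the listing limit in TKO, with a fold of 5.25 in SKO, 2.45 in TKO and 3.89 in WT.

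The 2 variable regions of Gata4 were weak in every list that held them. Gata4-6 (63226394 to 63226643) lay inside the gene and was in WT alone, with a pileup of 13, a fold of 4.49 and, in the authors' deposited table, a −log10 q of 5.08. It is in WT decile 1, where 76.9% of all WT regions were missing from SKO and 70.4% from TKO. Gata4-8 (63276470 to 63276841 in WT) lay 4.94 kb outside the gene and was missing from SKO. Its fold was 4.61 in TKO and 5.44 in WT, and its pileup 12 in TKO and 14 in WT. In WT decile 2, which holds it, 62.1% of regions were missing from SKO. Scaled by the ratio of genome-wide backgrounds, the WT pileup of Gata4-8 would be 10.9 in SKO. The lowest pileup SKO listed at its genome-wide background was 7, and the pileup needed at this place is not known.

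Sox17, an endoderm factor of the SRY-box family, lies on chromosome 1 (4490928 to 4497426), and Sox17-1 (4492114 to 4492335 in WT) lay inside it. SKO listed it with a pileup of 14 and a fold of 5.25, TKO did not list it, and WT listed it with a pileup of 18 and a fold of 5.90. Its scaled pileup in SKO was 0.998 times that in WT (95% interval 0.459 to 2.12 from counting error). It is in WT decile 3, where 36.3% of regions were missing from TKO. TKO's nearest summit lay 19.4 kb from Sox17.

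Sox7, a related factor of the endoderm, is 7.03 kb long and lies on chromosome 14 (63943706 to 63950732). No list held a region within 10 kb, and the nearest summit was 51.7 kb away in each list, with a fold of 18.2 in SKO, 11.5 in TKO and 14.0 in WT. Such an empty window was common: among the 7939 protein-coding genes of up to 10 kb it was seen for 42.6% in SKO, 42.0% in TKO and 39.2% in WT.

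Foxa2, a pioneer factor of the endoderm, lies on chromosome 2 (148042877 to 148046969), on the minus strand. Its region, Foxa2-1, lay 1.70 kb from the gene in SKO, 1.67 kb in TKO and 1.69 kb in WT, on the upstream side. The fold of Foxa2-1 was 27.6 in SKO, 22.4 in TKO and 20.1 in WT, and its pileup was 91 in SKO, 85 in TKO and 88 in WT. It was in the strongest decile of SKO and in decile 9 of TKO and WT. The scaled pileup in SKO was 1.33 times that in WT (0.979 to 1.80) and 1.42 times that in TKO (1.05 to 1.94). For SKO over TKO, intervals lay wholly above 1 for 2 of 25 members, Foxa2-1 and Lama1-2. The median over all paired regions was 1.09, and the share of them with such an interval is not given here.

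Dab2, which brings receptors into clathrin-coated pits, lies on chromosome 15 (6299788 to 6440715) and had all its regions inside the gene. Dab2-2, the region on the internal promoter shown above, had a fold of 6.01 in SKO, 10.0 in TKO and 12.7 in WT. Its pileup was 23 in SKO, 28 in TKO and 42 in WT. The scaled pileup of Dab2-2 was 0.703 times WT in SKO (0.403 to 1.20) and 0.644 times WT in TKO (0.384 to 1.06), so neither interval excludes an equal level.

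Dab2-3 (6431837 to 6432121 in WT) was missing from TKO. Its fold was 4.20 in SKO and 6.04 in WT, and its pileup 13 in SKO and 21 in WT. In WT decile 3, which holds Dab2-3, 36.3% of regions were missing from TKO. Dab2-4, the strongest of the gene and 3.96 kb away, was in all 3 lists with folds of 19.4 in SKO, 11.1 in TKO and 19.2 in WT. Dab2-1 was the weakest in WT, with a fold of 5.49 in SKO, 6.26 in TKO and 3.51 in WT, and had the highest scaled ratio to WT of any member, 2.02 in TKO (0.945 to 4.59).

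The laminin genes differed in which lists held their regions. Lamb1, the β1 chain, lies on chromosome 12 (31265146 to 31329644) and had a region in WT alone. Lamb1-1 (31263487 to 31263700) lay 1.51 kb outside the gene on the side of its annotated start, with a pileup of 7, a fold of 2.90 and, in the authors' deposited table, a −log10 q of 1.34. That pileup is the lowest WT listed at the genome-wide background. Lamb1-2 (31270248 to 31270508) lay 5.22 kb inside the gene, with a pileup of 15 and a fold of 5.81. Scaled to the knockouts, the 15 fragments would be 11.7 in SKO and 15.5 in TKO. The lowest pileups listed at the genome-wide background were 7 in SKO and 8 in TKO, and those needed at this place are not known. In decile 2 of WT, which holds Lamb1-2, 62.1% of regions were missing from SKO and 55.2% from TKO. In decile 1, which holds Lamb1-1, 76.9% were missing from SKO and 70.4% from TKO. The promoter window of Lamb1 was not covered in any list.

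Lama1, the α1 chain and a partner of Lamb1 in laminin-111, lies on chromosome 17 (67697127 to 67822645) and kept its 5 regions in all 3 lists. Lama1-1 had its WT summit 60 bases outside the gene boundary. Its fold was 25.4 in SKO, 15.2 in TKO and 24.2 in WT, and its pileup was 75 in SKO, 115 in TKO and 119 in WT. Lama1-4 (67776702 to 67777256 in WT) was the member with the highest WT fold: 9.01 in SKO, 11.7 in TKO and 28.3 in WT. The pileup of Lama1-4 was 29 in SKO, 40 in TKO and 77 in WT, over local backgrounds of 2.33 in SKO, 2.52 in TKO and 1.76 in WT. Scaled, it was 0.483 times WT in SKO (0.304 to 0.750) and 0.501 times WT in TKO (0.333 to 0.744).

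The neighbour Lama1-5, 3.02 kb away, was at 1.17 times WT in SKO (0.793 to 1.73) and 0.999 times WT in TKO (0.684 to 1.46). Lama1-2 had a fold of 24.9 in SKO, 10.9 in TKO and 9.67 in WT. Its pileups lay closer together, at 58 in SKO, 51 in TKO and 70 in WT, over local backgrounds at the summit of 1.37 in SKO, 3.78 in TKO and 6.34 in WT. These pileups are not scaled for depth. Scaled, Lama1-2 was at 1.06 times WT in SKO (0.738 to 1.53) and 0.703 times WT in TKO (0.480 to 1.02). In SKO its scaled pileup was 1.51 times that in TKO, with an interval wholly above 1. By fold and by scaled pileup alike, SKO thus stood above TKO at this region. The fold was higher in TKO than in WT, whereas the scaled pileup was lower, with an interval that includes 1.

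Col4a1 (chromosome 8, 11198423 to 11312889) and Col4a2 (11312805 to 11449287) encode the chains that form the common type IV collagen trimer. They lie head to head, so their promoter windows overlap. Together they held 14 of the 36 regions. They are long genes, at 114 kb and 136 kb, where the windows of all members came to 885 kb. Whether the 14 regions exceed what their length would give was not tested. No list had a region on the shared promoter, whose windows hold 37 CpG sites for Col4a1 and 33 for Col4a2. The nearest WT summit to it was Col4a1-4, 30.3 kb inside Col4a1 from the shared boundary.

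Of the 6 members in the strongest WT decile 5 lay here, as did 9 of the 19 in the upper 5 WT deciles. Col4a2-2 (11392776 to 11393178 in WT) had a fold of 23.8 in SKO, 17.6 in TKO and 21.7 in WT. Its pileup was 105 in SKO, 144 in TKO and 170 in WT, the highest of all members in WT. Col4a1-2, Col4a1-3, Col4a2-5 and Col4a2-7 were likewise in the strongest WT decile, and all 4 were in each list. In that decile 1 of 7107 WT regions was missing from SKO and 0 from TKO, so their presence does not set them apart.

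**Figure D3:**
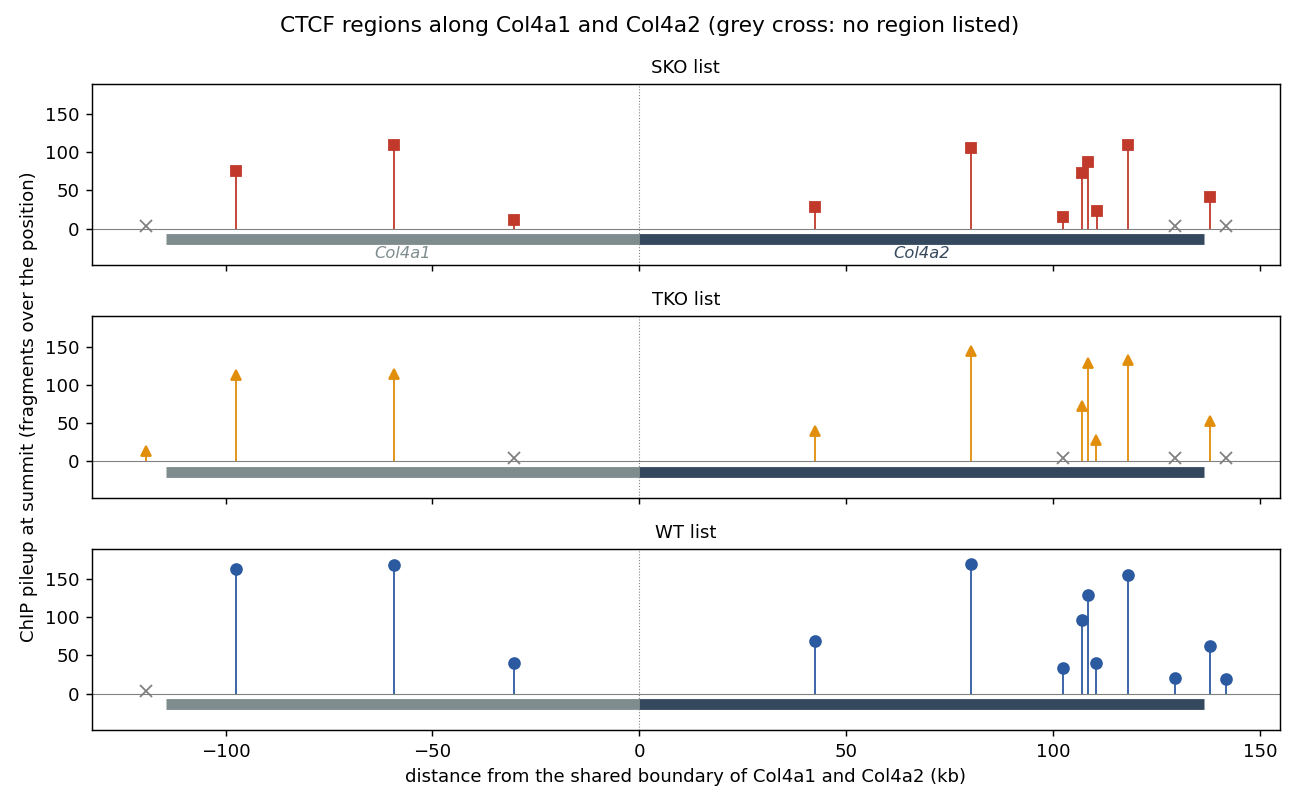
ChIP pileup at the summit (fragments over the position, linear axis) of the 14 regions along Col4a1 and Col4a2, against the distance from their shared boundary, in the SKO, TKO and WT lists. Grey crosses mark regions that a list lacks. Col4a1-4 at 30.3 kb to the left of the boundary and Col4a2-3 at 102 kb to the right are in SKO and WT and not in TKO.

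A pair of stronger WT regions was missing from TKO in these genes. Col4a1-4 (11282434 to 11282771 in WT) had a pileup of 11 in SKO and 40 in WT, with folds of 3.00 in SKO and 10.3 in WT. In the authors' deposited table its −log10 q was 2.06 in SKO and 28.6 in WT. It is in WT decile 6, where 1.58% of WT regions were missing from TKO. It was the 1 member absent from TKO among the 19 in the upper 5 deciles of WT, where 127 of 35537 regions (0.357%) were missing. Scaled by background, 40 WT fragments would be 41.4 in TKO, against a lowest pileup of 8 listed at the genome-wide background. The pileup needed at this place in TKO is not known. SKO held it at 0.353 times the scaled WT pileup (0.163 to 0.701), the lowest ratio of any member.

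Col4a2-3 (11415066 to 11415612 in WT) had a pileup of 15 in SKO and 34 in WT, with folds of 6.55 in SKO and 10.4 in WT. It is in WT decile 5, where 6.95% of WT regions were missing from TKO. Its scaled pileup in SKO was 0.566 times WT (0.287 to 1.07). Its neighbour Col4a2-4, 4.59 kb away, was in all 3 lists with folds of 17.1 in SKO, 11.5 in TKO and 17.7 in WT.

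Weaker regions of the pair varied too. Col4a2-8, inside the gene, and Col4a2-10, whose summit lies in the small GTPase gene Rab20, were in WT alone. Col4a2-8 had a WT pileup of 20 and a fold of 6.21, and Col4a2-10 a WT pileup of 19 and a fold of 5.35. In WT decile 3, which holds Col4a2-8, 43.4% of regions were missing from SKO and 36.3% from TKO. In WT decile 2, which holds Col4a2-10, 62.1% were missing from SKO and 55.2% from TKO. Col4a1-1 (11193620 to 11193839) was in TKO alone, with a pileup of 13 and a fold of 4.97, and lay 4.71 kb outside Col4a1. It was in the weakest TKO decile, where 41.8% of regions had no WT region. Col4a2-1, in all 3 lists, had a pileup of 28 in SKO, 39 in TKO and 69 in WT, which scaled to 0.521 times WT in SKO (0.323 to 0.819) and 0.546 times WT in TKO (0.359 to 0.820).

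The missing WT regions followed strength as in the whole list. In the lower 5 deciles of WT 6 of 16 members were missing from SKO, against 43.3% of all regions there, and in the upper 5 deciles 0 of 19, against 0.512%. From TKO 8 of 16 were missing in the lower 5 deciles, against 37.6%, and 1 of 19 in the upper 5, against 0.357%. A region of the upper deciles that goes missing was therefore rare in the series, and the single member of that kind is Col4a1-4.

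**Figure D4:**
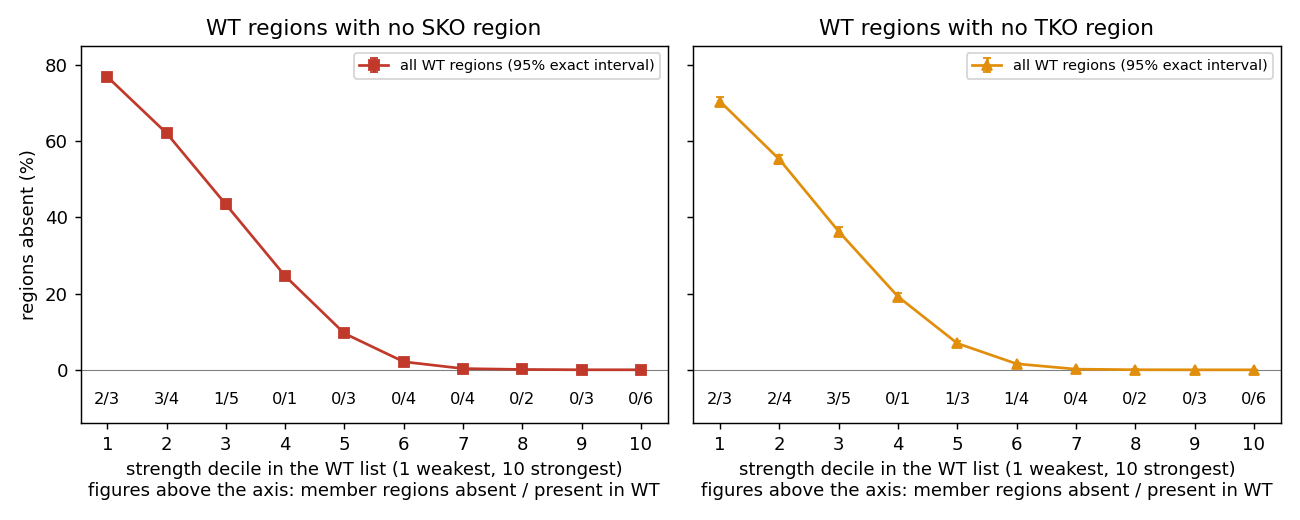
Share of WT regions with no SKO region (left) or no TKO region (right) by strength decile of the WT list, with exact binomial 95% intervals. The pairs of numbers along the foot of each panel give member regions missing and held in WT. Members are missing from SKO in deciles 1 to 3, and from TKO in deciles 1, 2, 3, 5 and 6.

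Where a member was listed in both genotypes, its scaled pileup was mostly below that of WT. The scaling uses the genome-wide backgrounds alone. It does not correct for how well each ChIP worked, so the ratios are not calibrated CTCF levels. Differences in ChIP efficiency between the lists were not tested. In SKO 24 of 29 members (82.8%) were below WT, with a median ratio of 0.809, and over all 55125 paired regions 59.3% were below, with a median of 0.942. In TKO 24 of 26 members (92.3%) were below WT, with a median of 0.722, against 73.5% and a median of 0.864 over all 57191 paired regions. Between SKO and TKO the median ratio of 25 members was 1.10, against 1.09 over 52985 paired regions. The SKO and TKO ratios share the WT pileups, and the member regions of a gene share a locus. Counting intervals lay wholly below 1 for 4 of 29 members in SKO (Lama1-4, Col4a1-2, Col4a1-4 and Col4a2-1), against 8.38% of all paired regions. In TKO they did so for 6 of 26 members (Gata4-2, Lama1-4, Col4a1-2, Col4a1-3, Col4a2-1 and Col4a2-4), against 14.5% of all paired regions. Intervals wholly above 1 were found for 0 members in SKO and 0 in TKO, against 3.40% of all paired regions in SKO and 0.972% in TKO. Whether these counts differ from the background was not tested.

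**Figure D5:**
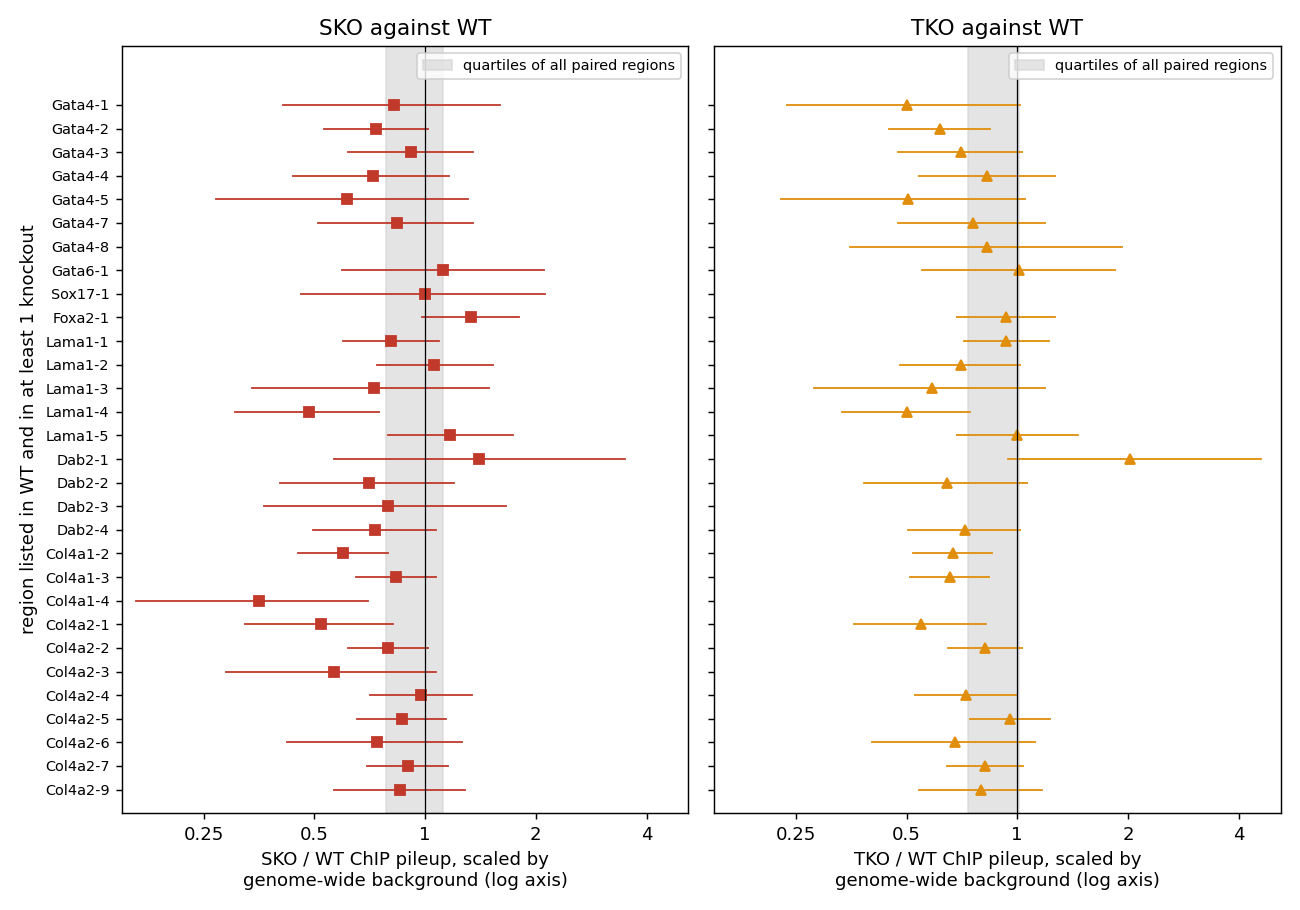
Ratio of the ChIP pileup in SKO (left) and TKO (right) to that in WT, each divided by the genome-wide background of its list (log axis), with 95% intervals for counting error, for member regions listed in both genotypes. Grey bands span the quartiles over all paired regions. Lama1-4 lies at 0.483 in SKO and 0.501 in TKO, and Col4a1-4 at 0.353 in SKO.

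Of the 36 regions 27 (75.0%) had their summit inside the member gene and 9 in its flanks, where the gene bodies make up 79.7% of the windows searched. A pair of regions, Gata6-1 and Lama1-1, lay within 1 kb of a gene boundary.

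A further 29 genes of the extraembryonic endoderm gave 84 SKO, 81 TKO and 85 WT regions. Of their WT regions 12 were missing from SKO (14.1%, against 21.9% of all WT regions) and 10 from TKO (11.8%, against 19.0%). Among their SKO regions 11 had no WT region (13.1%, against 6.59% of all SKO regions), and among their TKO regions 7 (8.64%, against 7.49% of all TKO regions). These shares were not tested against the background or against those of the members. By group, of the WT regions at genes of receptors and signalling 2 of 24 were missing from SKO and 3 from TKO, at transcription factor genes 2 of 15 from SKO and 1 from TKO, and at basement membrane genes and chaperones 5 of 21 from SKO and 3 from TKO. At genes of protein uptake and secreted proteins 2 of 15 were missing from SKO and 1 from TKO, and at the other markers 1 of 10 from SKO and 2 from TKO.

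Lamc1, the γ1 chain that joins Lama1 and Lamb1 in laminin-111, had the most changes of these genes, with 5 regions in SKO, 4 in TKO and 3 in WT. Of its SKO regions 3 and of its TKO regions 1 had no WT region, and 1 WT region was missing from SKO. Pdgfra, a receptor that marks primitive endoderm, had 6 regions in SKO, 5 in TKO and 6 in WT, with 1 missing from each knockout and 1 extra in each. Sox18, a relative of Sox17 and Sox7, had 5 regions in SKO, 3 in TKO and 2 in WT, with 3 extra in SKO and 1 extra in TKO. These genes are named because they had the most missing or extra regions, so their counts are a description.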

How the data were processed

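CTCF ChIP-seq peak lists of SKO, TKO and WT mouse embryonic stem cells were used, 1 per genotype, each made by the authors from 3 pooled ChIP replicates and input, per the labels. The submitters' processing notes list MACS2 2.1.2 among the tools, beside Bowtie2 2.3.4, FastQC 0.11.7, deepTools 3.5.0, SAMtools 1.9 and bedtools 2.25.0, and the build mm10. For commands and filters, the sources used here give none. Each deposited peak has the authors' fold enrichment (a ratio) and its significance against input as −log10 p and −log10 q. The smallest −log10 q was 1.31 in SKO, 1.30 in TKO and 1.30 in WT, which is a q of 0.05. Depth per sample was not used here.

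Rows with equal intervals were joined, keeping the strongest summit (Python 3.11.15, pandas 2.3.3, scipy 1.17.1). Regions that overlapped by at least 1 bp counted as shared, and bedtools 2.31.1 gave the same counts. Pileup and background were solved from fold and −log10 p, with a relative error under 1e-04 for 99.7% of SKO, 99.6% of TKO and 99.5% of WT regions. The solver and the overlaps were tested on simulated data. Strength deciles rank regions by −log10 q within a list. Shares carry exact binomial 95% intervals. Ratios of pileups, divided by the genome-wide backgrounds, carry exact intervals for counting error only, computed alike for the members and for all paired regions. The labels name no molecular identifiers, so reads may not be independent molecules.

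Gene positions are those of RefSeq (GRCm38.p6), whose gene table here has no strand or exons, so exons and introns were not told apart. All 10 symbols matched, as did the 29 further genes. The gene set, the further genes, the pileup ratios and the rules were chosen with earlier results of these data known. All 10 genes are named, with each gene's strongest WT region and each region that a list lacks or that lies within 1 kb of a gene boundary. Of the further genes, those with most missing or extra regions are named. The alternatives tried were gene bodies alone, 50 kb either side, stricter overlap, summits within 100 bp, a −log10 q of at least 5 in the first or in both lists, and each summit row counted on its own.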

Additional observations from a re-analysis of the deposited data

How the results depend on the processing

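The 6 shares of missing or extra member regions were recomputed under 7 alternatives, and 40 of the 42 values stayed inside the interval of the value reported. No member region had several summits, so counting each summit row on its own could not change a member share. The intervals are wide, so a value inside one can still differ, as 36.4% against the reported 25.7% for WT regions missing from TKO. With gene bodies alone, extra TKO regions against WT came to 0 (0 of 20) and TKO regions missing from SKO to 0 (0 of 20), since the regions concerned lie in the flanks. The share of WT regions missing from SKO ranged from 11.1% to 27.3% and of those missing from TKO from 21.4% to 36.4%, both highest with a −log10 q of at least 5 in both lists, where the shares over all regions were 20.4% and 16.9%. For TKO the interval there, 20.4% to 54.9% (12 of 33), lay above the share over all regions, the 1 setting of the 7 in which a background share fell outside a members' interval. With 50 kb either side, the genes held 46 SKO, 45 TKO and 56 WT regions. The share missing from SKO lay below that of all WT regions except with both lists at that threshold. No paired analysis was possible because the authors pooled the replicates before calling peaks, and for the same reason no replicate could be left out. The lowest pileup listed at the genome-wide background was 7 fragments in SKO, 8 in TKO and 7 in WT, and the part of depth in which weak regions are listed was not tested.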
